A study of Mus musculus with 6 samples.

Results

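Voltage-gated sodium channels carry the inward current of the action potential. Their genes were examined in a series of RNA sequencing libraries from whole mouse retina. The genes followed here were *Scn1a*, *Scn2a*, *Scn3a* and *Scn8a*, which encode pore-forming α subunits, and *Scn2b*, *Scn3b* and *Scn4b*, which encode auxiliary β subunits. They were found by symbol in the deposited count table, in which Nav1.2 is written *Scn2a*, and they make up 7 of its 31169 genes. All retinas came from male C57BL/6 mice that were injected in both eyes at 1 month of age and were 2 months old when the tissue was taken, 4 weeks later. In 3 retinas the anterior chamber had received saline, and in 3 it had received polystyrene microbeads with a diameter of 15 μm, which obstruct the outflow of aqueous humor and raise intraocular pressure. The comparison asks whether RNA levels of the channels differ between microbead and saline retina. No retina was taken from uninjected mice, and the labels do not state whether each retina came from a different animal. The p-values therefore measure the spread between these 6 samples, which may be in part technical.

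A voltage-gated sodium channel opens when the membrane depolarizes, lets sodium in, and inactivates within milliseconds when a short intracellular loop between 2 of the 4 domains of the α subunit closes the pore. The α subunit forms the pore on its own, and the β subunits, which cross the membrane at a single point and carry an immunoglobulin-like domain outside the cell, tune gating, delivery to the surface and adhesion. In the retina, sodium channels are best known from retinal ganglion cells (RGCs), the output neurons, which cluster them at the axon initial segment. Some amacrine and bipolar cells also fire sodium spikes. Photoreceptors and Müller glia, which contribute much of the RNA of a whole retina, are not known for large sodium currents in the mouse.

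The following coding sequence of *Scn8a*, the gene with the lowest adjusted p of the 7, is shown because it holds the inactivation gate, the loop that closes the pore. It spans 69 coding bases over 2 exons, is written 5′ to 3′ on the coding strand, and has in capitals the 3 codons for isoleucine, phenylalanine and methionine, the motif of this gate. The sequence was taken from the GENCODE vM21 transcripts of mouse genome build GRCm38, where the gate lies within chr15:101032308-101033531 on the plus strand, a range that includes the intron between the exons.
Scn8a: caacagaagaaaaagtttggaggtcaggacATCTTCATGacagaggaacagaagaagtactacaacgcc

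The α genes are close relatives, so it was counted how far their transcripts share sequence. Of all stretches of 100 bases, the read length used, 0.876% of *Scn1a*, 1.03% of *Scn2a* and 2.22% of *Scn3a* also occur in transcripts of another gene, and 0% of *Scn8a*, *Scn2b*, *Scn3b* and *Scn4b*. With stretches of 31 bases, the shares are 7.29%, 9.16% and 9.57% for the first 3 genes and between 0% and 2.22% for the other 4.

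In the GENCODE vM21 annotation, 3 of the α genes lie on chromosome 2, with *Scn3a* at chr2:65457118-65567627 on the minus strand, *Scn2a* at chr2:65620771-65767447 on the plus strand and *Scn1a* at chr2:66270778-66440840 on the minus strand. *Scn8a* lies at chr15:100869858-101045938 on the plus strand. The β genes lie on the plus strand of chromosome 9, where *Scn2b* at chr9:45117782-45130070 and *Scn4b* at chr9:45138395-45154152 lie close together and *Scn3b* is at chr9:40269217-40291618. All 7 are protein-coding. Genes on the opposite strand overlap *Scn1a*, *Scn3a*, *Scn2b* and *Scn3b*, but share 0 exon bases with them in this annotation.

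The saline libraries held between 36085737 and 46481382 counts and the microbead libraries between 13574949 and 19834366. Levels are given as counts per 1000000 counts of a library (CPM), after scaling of the library sizes. All 7 genes were well above the detection limit, since the lowest count of any of them in any library was 40 and 3 counts correspond to at most 0.217 CPM. The library names in the sample descriptions have one prefix for all saline libraries and another for all microbead libraries, while the tags in the sample titles run on through both groups. If the prefixes mark separate preparations, preparation and injection cannot be told apart. Rod markers, which define retina, were abundant in every library, at a sum over 10 genes between 56782 and 83579 CPM.

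Saline replicate 1 stood apart from the other retinas in its RGC markers. The sum over 16 RGC marker genes was 494 CPM in this retina, compared with 1316 CPM in saline replicate 2, 1667 CPM in saline replicate 3, and 1552, 1152 and 1419 CPM in the microbead retinas. Each of the 16 genes was lowest there. The sum over 10 amacrine cell markers was also lowest there, at 1277 CPM, against 1551 to 2232 CPM in the other 5 retinas. Of these 10 genes, 6 were lowest there. The sum over 7 microglia markers was highest there, at 205 CPM, against 48.5 to 112 CPM in the other 5 retinas. In whole tissue, fewer cells of a type and less RNA per cell cannot be told apart. RGCs and amacrine cells are the retinal neurons best known for sodium channels, so each result that rests on this retina is given with and without it.

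The channel genes differed widely in level. To compare genes, CPM were divided by the length of the gene's exons in kilobases. *Scn2b* had the highest level, with a mean of 13.7 ± 4.06 CPM per kb (SD, n = 6), followed by *Scn8a* (8.50 ± 1.94), *Scn1a* (5.79 ± 1.89), *Scn3b* (4.60 ± 1.43), *Scn2a* (3.04 ± 0.910), *Scn3a* (1.34 ± 0.502) and *Scn4b* (1.02 ± 0.659 CPM per kb). The ranges of neighbors in this order overlapped in every case. Within a retina the order was steadier. *Scn2b* exceeded *Scn8a*, *Scn1a* exceeded *Scn3b*, *Scn3b* exceeded *Scn2a* and *Scn2a* exceeded *Scn3a* in 6 of 6 retinas, *Scn8a* exceeded *Scn1a* in 5 of 6, and *Scn3a* exceeded *Scn4b* in 4 of 6. The exception for *Scn8a* over *Scn1a* was saline replicate 3.

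**Figure D1:**
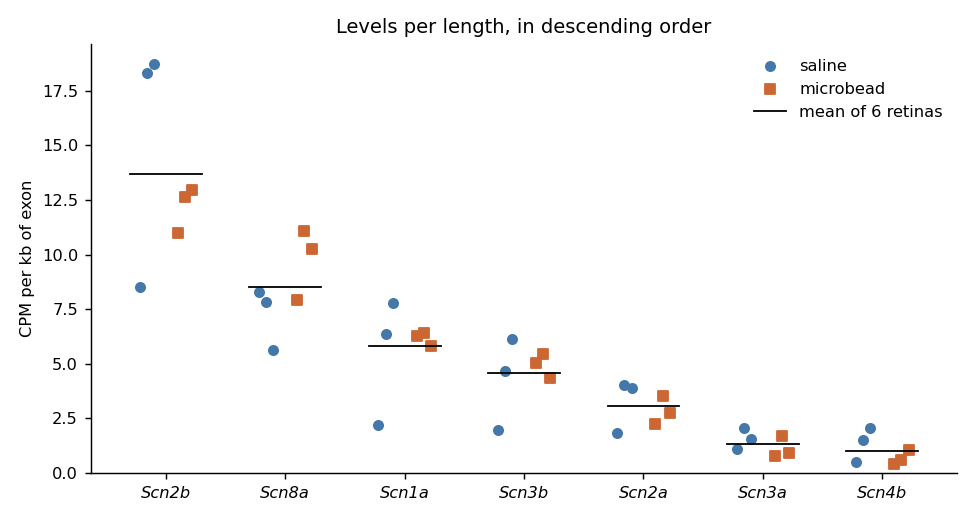
Level of each sodium channel gene in CPM per kb of exon (vertical axis), with genes in descending order of their mean along the horizontal axis. Circles are the 3 saline retinas, squares the 3 microbead retinas and lines the mean of all 6, which falls from 13.7 for *Scn2b* to 1.02 for *Scn4b*.

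None of the 7 genes passed the test of microbead against saline. The quasi-likelihood test of edgeR was run on the 17707 genes that passed a filter on low counts, and its p-values were adjusted over all of them by the Benjamini-Hochberg method. At a threshold of 0.05, 0 of the 7 genes passed, while 2261 of all genes tested did (12.8%), with 6.46% higher and 6.31% lower in microbead retinas. At an unadjusted p-value under 0.05 the count was also 0 of 7, against 5564 of all genes. The 2 groups overlapped for all 7, whereas 37.8% of all genes tested had no overlap. The median log2 fold change of the 7 was -0.19, with 3 values above 0 and 4 below, against a median of -0.03 over all genes tested. All 7 passed the filter on low counts. With DESeq2 and with limma-voom, 0 of the 7 passed as well.

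**Figure D2:**
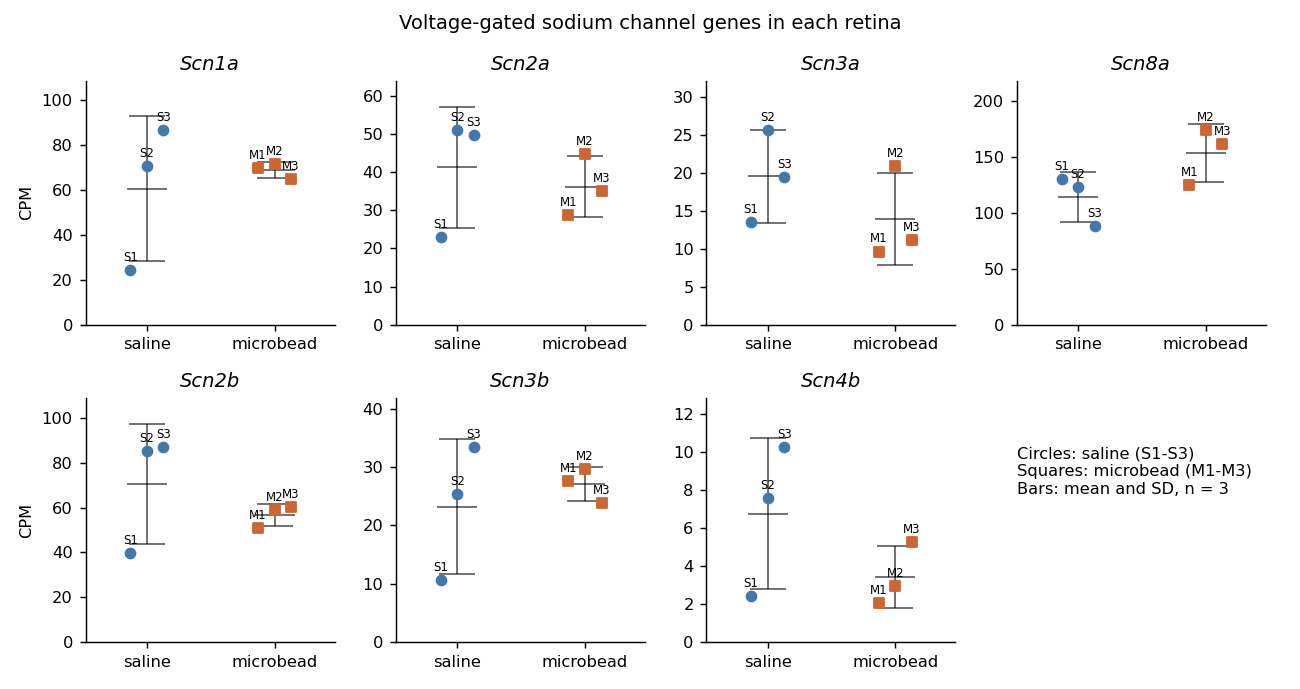
CPM of each of the 7 sodium channel genes (vertical axes, each from 0) in the 3 saline retinas (circles, S1 to S3) and the 3 microbead retinas (squares, M1 to M3), with bars for the mean and SD (n = 3). Groups overlap in every panel, and S1 is the lowest saline retina in 6 of the 7 panels, all but that of *Scn8a*.

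Among the α genes, *Scn8a* encodes Nav1.6, the main channel of the mature axon initial segment and node of Ranvier. *Scn8a* was measured at 130.5, 123 and 88.8 CPM in the saline retinas and at 125, 175 and 162 CPM in the microbead retinas. The means were 114 ± 22.3 and 154 ± 25.6 CPM (SD, n = 3 each). Its 2 highest values were those of microbead replicates 2 and 3, while microbead replicate 1 lay within the range of the saline retinas. The difference between the groups, as a log2 fold change, was 0.43 with a standard error (SE) of 0.21 (95% interval -0.03 to 0.89), and its adjusted p-value, 0.187 from edgeR, was the lowest among the 7 genes. Leaving out any 1 retina kept this log2 value between 0.28 and 0.56.

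*Scn1a* encodes Nav1.1, a channel of the proximal initial segment and of the soma, found in RGCs and in spiking interneurons. *Scn1a* was measured at 24.3, 70.7 and 86.7 CPM in the saline retinas and at 69.6, 71.6 and 64.6 CPM in the microbead retinas. The microbead retinas lay close together (68.6 ± 3.60 CPM, SD, n = 3) and inside the much wider range of the saline retinas (60.5 ± 32.4 CPM). Its log2 fold change was 0.18 (SE 0.37, 95% interval -0.65 to 1.02, adjusted p = 0.778 from edgeR). It was -0.20 without saline replicate 1, so the sign rested on this retina.

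*Scn2a* encodes Nav1.2, which in RGCs is known from unmyelinated axon stretches and from initial segments early in life. *Scn2a* was measured at 23.1, 51.1 and 49.7 CPM in the saline retinas and at 28.7, 44.8 and 35.1 CPM in the microbead retinas. The saline retinas held both the lowest value, in replicate 1, and the 2 highest. Microbead over saline, the log2 fold change came to -0.19 (SE 0.30, 95% interval -0.87 to 0.49, adjusted p = 0.706 from edgeR). It was -0.48 without saline replicate 1 (adjusted p = 0.163 from edgeR) and -0.0105 without saline replicate 2.

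*Scn3a* encodes Nav1.3, a channel most abundant before birth and low in mature neurons. *Scn3a* was measured at 13.5, 25.6 and 19.5 CPM in the saline retinas and at 9.62, 20.9 and 11.2 CPM in the microbead retinas. Microbead replicates 1 and 3 were the lowest of all 6, and microbead replicate 2 was second only to saline replicate 2. This gave a log2 fold change of -0.50 (SE 0.34, 95% interval -1.25 to 0.26, adjusted p = 0.343 from edgeR), and it ran from -0.25 without saline replicate 2 to -0.89 without microbead replicate 2.

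The share of *Scn8a* in the α subunit RNA was spread more widely among saline than among microbead retinas. Summed over the 4 α genes, the level was 13.3, 20.2 and 18.9 CPM per kb in the saline retinas and 17.2, 22.7 and 19.7 CPM per kb in the microbead retinas. *Scn8a* made up 62.0%, 38.6% and 29.8% of this sum in the saline retinas and 46.1%, 48.8% and 52.0% in the microbead retinas. Both the highest and the lowest share were those of saline retinas, the highest that of saline replicate 1. Without this retina, the saline shares of *Scn8a* lay below all microbead shares, which was not tested. The ratio of *Scn8a* to *Scn1a*, both per kb, was 3.80 in saline replicate 1, 1.23 and 0.724 in the other saline retinas and 1.27, 1.72 and 1.77 in the microbead retinas. Without saline replicate 1, this ratio too was lower in each saline retina than in each microbead retina, and it was not tested. *Scn3a* held the smallest share, with 8.10%, 10.2% and 8.28% in the saline retinas and 4.49%, 7.38% and 4.55% in the microbead retinas. These shares of *Scn3a* did not overlap between the groups, though they are parts of a common sum with the other 3 genes and were not tested. In CPM the groups overlapped for *Scn3a*, and 18.9% of all genes tested separated in this direction. How often such shares separate over all genes was not computed.

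Among the β genes, *Scn2b* encodes the β2 subunit, which is joined to the α subunit by a disulfide bond and supports the surface density of the channels. *Scn2b* was measured at 39.7, 85.2 and 87.2 CPM in the saline retinas and at 51.1, 58.9 and 60.3 CPM in the microbead retinas. All microbead retinas lay between the low saline replicate 1 and the other saline retinas. The resulting log2 fold change was -0.32 (SE 0.28, 95% interval -0.94 to 0.30, adjusted p = 0.468 from edgeR). Without saline replicate 1 the log2 fold change was -0.61 (adjusted p = 0.0564 from edgeR), which was not past the threshold. It was -0.14 without saline replicate 3 (adjusted p = 0.787 from edgeR) and -0.17 without saline replicate 2 (adjusted p = 0.789 from edgeR).

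*Scn3b* encodes the β3 subunit, which binds the α subunit without a covalent bond. *Scn3b* was measured at 10.7, 25.4 and 33.4 CPM in the saline retinas and at 27.5, 29.7 and 23.8 CPM in the microbead retinas. As for *Scn1a*, the microbead retinas lay inside the range of the saline retinas. Its log2 fold change was 0.22 (SE 0.35, 95% interval -0.56 to 1.00, adjusted p = 0.703 from edgeR), and it was -0.13 without saline replicate 1.

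*Scn4b* encodes the β4 subunit, also bound by a disulfide bond and known for its part in the resurgent current that flows on repolarization. *Scn4b* was measured at 2.42, 7.57 and 10.3 CPM in the saline retinas and at 2.06, 2.96 and 5.26 CPM in the microbead retinas. These values rest on 91, 365 and 360 counts and on 40, 41 and 81 counts, the fewest of the 7 genes. Only saline replicate 1 kept the groups from separating, since the other saline retinas lay above all microbead retinas. The log2 fold change reached -0.98 (SE 0.53, 95% interval -2.18 to 0.21, adjusted p = 0.239 from edgeR), the largest in size of the 7 genes. Without saline replicate 1 it was -1.39 (adjusted p = 0.0430 from edgeR), past the threshold. Without this retina, 15.1% of the 17321 genes tested passed, and 7.30% passed and were lower in microbead retinas. With any other retina left out, the adjusted p-value from edgeR was between 0.214 and 0.532 and the log2 fold change between -1.44 and -0.55.

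**Figure D3:**
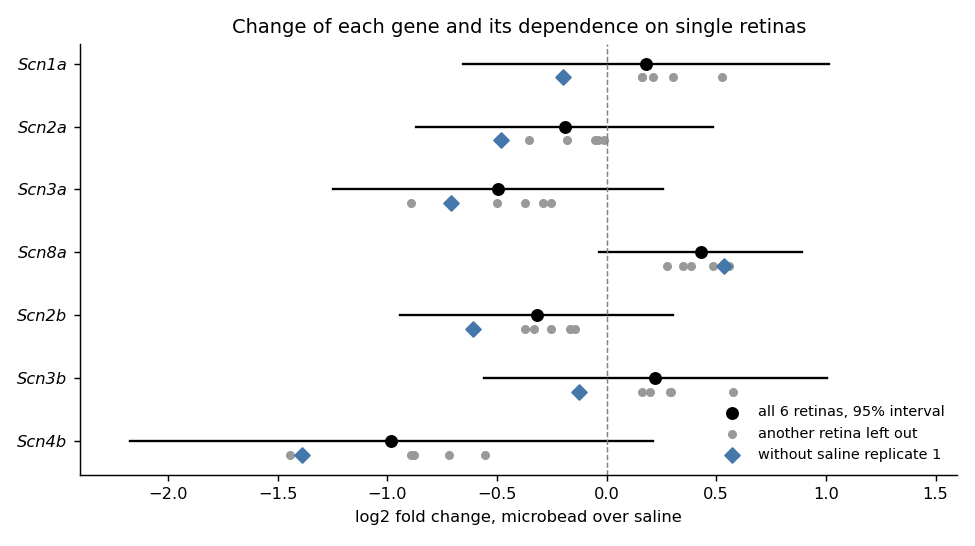
Log2 fold change of microbead over saline retinas (horizontal axis) for each sodium channel gene. Black points and lines are the value from all 6 retinas with its 95% interval, which spans 0 for each gene, gray points are the values with another retina left out, and diamonds those without saline replicate 1, where *Scn1a* and *Scn3b* fall below 0 and *Scn4b* reaches -1.39.

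Summed over the 3 β genes, the level was 11.0, 24.5 and 26.9 CPM per kb in the saline retinas and 16.4, 18.7 and 18.4 CPM per kb in the microbead retinas. *Scn2b* made up between 66.8% and 77.8% of this sum in all 6 retinas. The share of *Scn3b* was 17.8%, 19.0% and 22.7% in the saline retinas and 30.7%, 29.1% and 23.8% in the microbead retinas, without overlap, and that of *Scn4b* was 4.42%, 6.21% and 7.66% against 2.52%, 3.18% and 5.75%, with overlap. These shares are parts of a common sum and were not tested. In CPM the groups overlapped for *Scn3b*, while 37.8% of all genes tested had no overlap in CPM. How often such shares separate over all genes was not computed. The ratio of the β sum to the α sum was 0.822, 1.21 and 1.43 in the saline retinas and 0.954, 0.822 and 0.932 in the microbead retinas. The other saline retinas were above all microbead retinas in this ratio, and saline replicate 1 was level with the lowest of them.

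The 7 genes did not all follow the RGC markers from retina to retina. In saline replicate 1, 6 of the 7 genes had the lowest value of the saline group, against 32.8% of all genes tested, and 4 of the 7 had the lowest value of all 6 retinas, against 12.2% of all genes tested. Expressed as a percent of the RGC marker sum of the same retina, *Scn1a* was 4.91%, 5.37% and 5.20% in the saline retinas and 4.49%, 6.22% and 4.56% in the microbead retinas. *Scn3b* was likewise steady, at 2.16%, 1.93% and 2.00% against 1.77%, 2.58% and 1.68%. For these 2 genes, the coefficient of variation over the 6 retinas was 12.5% and 15.9% after this division, compared with 32.7% and 31.2% for CPM.

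*Scn8a* was the opposite case. As a percent of the RGC marker sum it was 26.4%, 9.36% and 5.32% in the saline retinas and 8.06%, 15.2% and 11.4% in the microbead retinas, with a coefficient of variation of 59.6% compared with 22.8% for CPM. Saline replicate 1, with the lowest RGC marker sum, held the highest *Scn8a* level of the saline retinas, and saline replicate 3, with the highest RGC marker sum, held the lowest level of all 6 retinas.

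For *Scn2b* and *Scn4b*, division by the RGC marker sum separated the groups. *Scn2b* was 8.04%, 6.47% and 5.23% of the RGC marker sum in the saline retinas and 3.29%, 5.11% and 4.25% in the microbead retinas. *Scn4b* was 0.489%, 0.575% and 0.616% in the saline retinas and 0.133%, 0.257% and 0.371% in the microbead retinas. Each saline retina was above each microbead retina for both genes after this division. In CPM the groups overlapped for both, and 18.9% of all genes tested separated in this direction. The share of all genes that separate after the division was not computed. *Scn2a* was 4.67%, 3.88% and 2.98% against 1.85%, 3.89% and 2.48%, and *Scn3a* was 2.73%, 1.95% and 1.17% against 0.620%, 1.81% and 0.787%, both with overlap. These divided values are a description and were not tested, and the ranges of the marker sum overlapped between the groups. The sum ran from 494 to 1667 CPM in the saline and from 1152 to 1552 CPM in the microbead retinas. Of its 16 genes, 0 passed the threshold of edgeR's test and none was at 0 in any retina. Its part in the results was not tested.

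**Figure D4:**
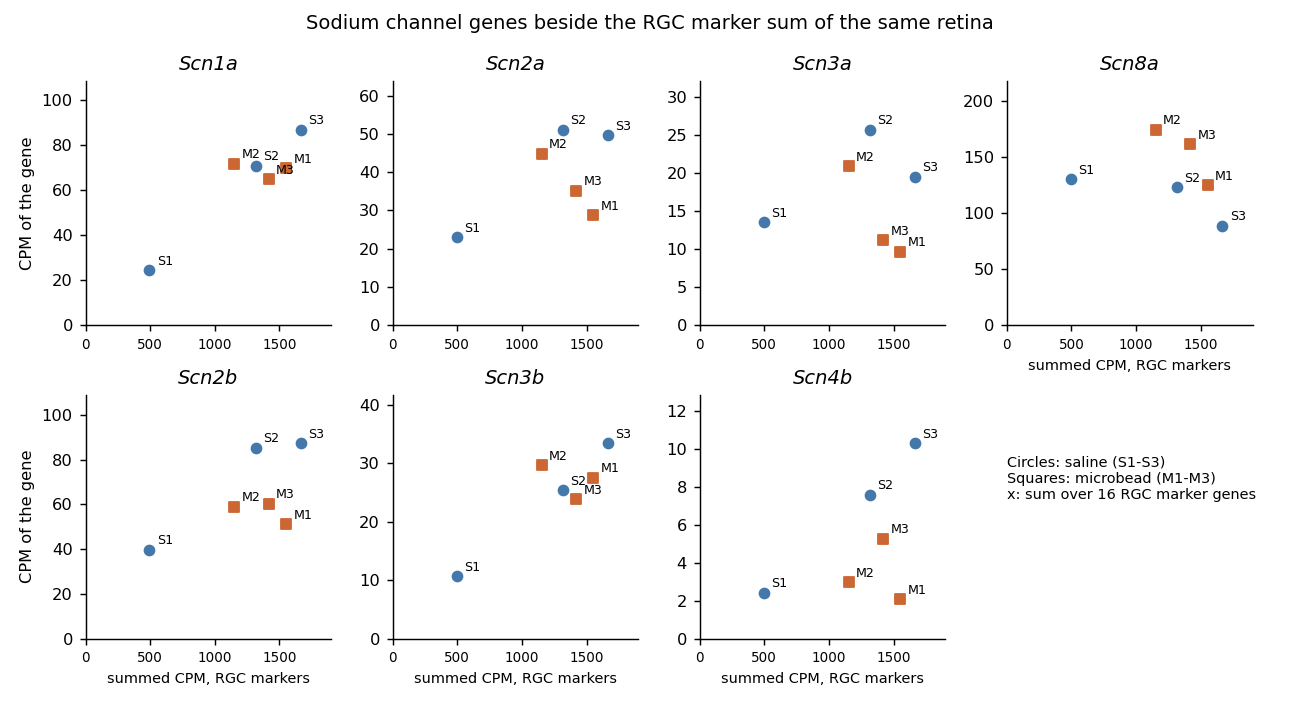
CPM of each sodium channel gene (vertical axes, from 0) against the summed CPM of 16 RGC markers (horizontal axes, from 0) in each retina, with circles for saline (S1 to S3) and squares for microbead retinas (M1 to M3). *Scn1a* and *Scn3b* are low in S1, where the marker sum is 494 CPM, while *Scn8a* is at 130.5 CPM there and at 88.8 CPM in S3, where the sum is 1667 CPM.

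Of the other genes of the family, 8 were in the table and 6 were tested, of which 1, *Scn7a*, was past the threshold, against 12.8% of all genes tested. *Scn7a* encodes Nax, a relative that responds to the extracellular sodium concentration and is not opened by voltage. *Scn7a* was measured at 17.4, 15.5 and 27.2 CPM in the saline retinas and at 10.4, 10.5 and 6.11 CPM in the microbead retinas, without overlap. It fell with a log2 fold change of -1.15 (SE 0.30, adjusted p = 0.0372 from edgeR). The call was lost with any retina other than saline replicate 1 left out (adjusted p between 0.0668 and 0.134 from edgeR), with limma-voom (0.0515) and with all libraries thinned to the smallest (0.0530). Over all genes tested, 6.31% were past the threshold and lower. Endothelial markers were lower as well, 4 of 7 past the threshold, with sums between 453 and 650 CPM in the saline and between 278 and 424 CPM in the microbead retinas. So were Müller glia markers, 3 of 10 past the threshold, with sums between 6836 and 10400 CPM and between 5353 and 6681 CPM. No marker of either list was at 0 in any retina, and the part of these cells in the result for *Scn7a* was not tested.

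*Nalcn*, the sodium leak channel that sets resting excitability, was measured at 45.7, 70.5 and 103.7 CPM in the saline retinas and at 33.5, 49.0 and 28.0 CPM in the microbead retinas. The groups overlapped through saline replicate 1 and microbead replicate 2. Its log2 fold change was -0.99 (SE 0.31, adjusted p = 0.0637 from edgeR), and -1.25 without saline replicate 1 (adjusted p = 0.0170 from edgeR). It was also past the threshold with DESeq2 (adjusted p = 0.0164) and without the filter on low counts (adjusted p = 0.000733 from edgeR), but in none of the other 14 of 17 alternatives. Without saline replicate 3 it was -0.66 (adjusted p = 0.148 from edgeR).

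Of the α genes known from muscle and sensory neurons, *Scn4a* had a log2 fold change of -0.23 (adjusted p = 0.624 from edgeR) and *Scn9a* of 0.09 (adjusted p = 0.864 from edgeR). *Scn9a* shares 180 exon bases with an antisense gene, from which its reads cannot be told apart if counting ignored strand. *Scn10a* and *Scn11a*, known from sensory ganglia, did not pass the filter on low counts.

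Proteins that bind, anchor or modify the channels were taken from lists of 4, 19 and 20 genes, all of which were tested. Over all genes tested, 6.46% rose and 6.31% fell past the threshold. The fibroblast growth factor homologous factors, which bind the intracellular end of the α subunit and set the voltage of inactivation, had 0 of 4 genes past the threshold and a median log2 fold change of -0.33, with 1 value above 0. *Fgf11* was measured at 65.7, 80.3 and 85.6 CPM in the saline retinas and at 102.6, 87.4 and 98.5 CPM in the microbead retinas (log2 fold change 0.32, adjusted p = 0.237 from edgeR). *Fgf12* had a log2 fold change of -0.30 (adjusted p = 0.618 from edgeR), which was -0.68 and past the threshold without saline replicate 1 (adjusted p = 0.0440 from edgeR) and 0.02 without saline replicate 3.

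Of the 19 proteins of the axon initial segment and node, 1 rose and 0 fell past the threshold, with a median log2 fold change of -0.10. The gene that rose was *Bcan*, which encodes brevican, a proteoglycan of the matrix around nodes and neurons. *Bcan* was measured at 4.46, 7.20 and 6.22 CPM in the saline retinas and at 11.3, 10.6 and 19.2 CPM in the microbead retinas, without overlap. The log2 fold change was 1.197 (SE 0.31, adjusted p = 0.0362 from edgeR), and the call was lost with each of the 6 retinas left out in turn (adjusted p between 0.0529 and 0.152 from edgeR). The genes with the highest level in this list encode spectrins of the membrane skeleton. *Sptan1* had a log2 fold change of -0.54 (adjusted p = 0.0995 from edgeR) and *Sptbn1* of -0.60 (adjusted p = 0.120 from edgeR), the latter -0.80 and past the threshold without saline replicate 1 (adjusted p = 0.0367 from edgeR) and -0.38 without saline replicate 3 (adjusted p = 0.306 from edgeR).

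Of the 20 genes for trafficking and modification, 1 rose and 2 fell past the threshold, with a median log2 fold change of -0.02. *Csnk2a1* and *Csnk2b* encode the catalytic α and the regulatory β subunit of casein kinase 2, which phosphorylates the channels' anchor site for ankyrin-G. *Csnk2a1* was measured at 116, 109 and 99.6 CPM in the saline retinas and at 77.3, 71.3 and 61.8 CPM in the microbead retinas, a log2 fold change of -0.63 (SE 0.17, adjusted p = 0.0393 from edgeR). *Csnk2b* was measured at 67.9, 64.6 and 70.2 CPM in the saline retinas and at 149, 98.7 and 115 CPM in the microbead retinas, a log2 fold change of 0.84 (SE 0.19, adjusted p = 0.0249 from edgeR). The 2 subunits of the kinase thus changed in opposite directions, each without overlap between the groups. The gene of the other catalytic subunit, *Csnk2a2*, chosen after its values were seen, had a log2 fold change of -0.01 (adjusted p = 0.979 from edgeR).

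*Gsk3b* encodes glycogen synthase kinase 3β, which phosphorylates α subunits. *Gsk3b* was measured at 220, 269 and 271 CPM in the saline retinas and at 143, 170.5 and 143 CPM in the microbead retinas, without overlap, and fell with a log2 fold change of -0.74 (SE 0.17, adjusted p = 0.0280 from edgeR). These 3 kinase genes kept their sign with each retina left out. The call of *Csnk2a1* held only without saline replicate 3, that of *Gsk3b* only without saline replicate 1, and that of *Csnk2b* without saline replicate 1, saline replicate 3 or microbead replicate 2. The adjusted p-values in the other fits were between 0.0548 and 0.141 (edgeR). *Calm3* encodes calmodulin, which binds the channels' intracellular end. Its log2 fold change was 0.11 (adjusted p = 0.783 from edgeR), with a negative sign without saline replicate 1 or microbead replicate 3.

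**Figure D5:**
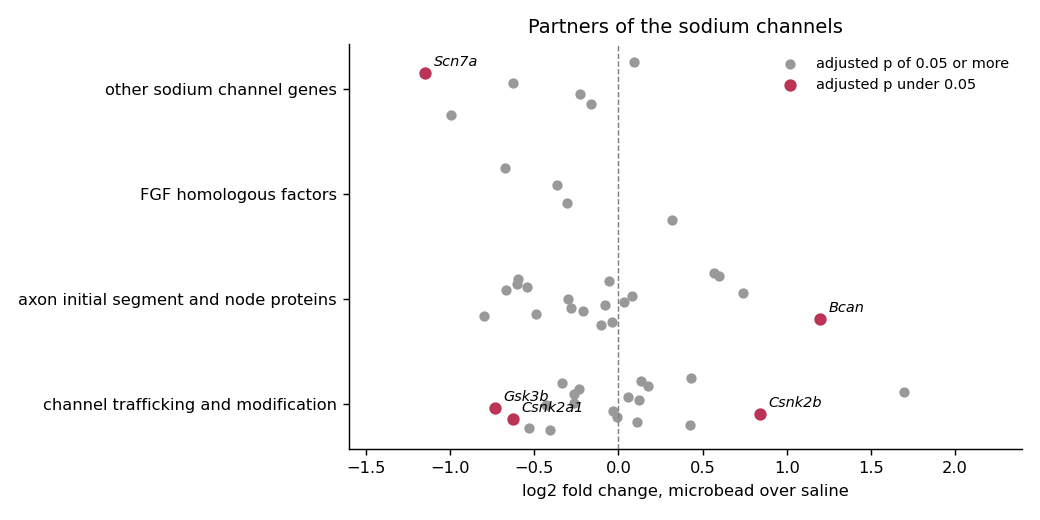
Log2 fold change of microbead over saline retinas (horizontal axis) for each tested gene of 4 lists of sodium channel relatives and partners (rows, with points spread vertically for legibility). Dark red points had an adjusted p-value under 0.05 with edgeR and are named: *Scn7a*, *Gsk3b* and *Csnk2a1* lie below 0, and *Bcan* and *Csnk2b* above.

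The genes whose pattern over the 6 retinas was most like that of the channels were taken from 11823 tested genes with a mean of at least 5 CPM, by Pearson correlation of log2 CPM, as a description, since all genes of a library share its depth and its tissue makeup. Most like the mean profile of the 4 α genes were *Adarb2* (r = 0.992, n = 6), *Fat4* (0.985) and *Dtna* (0.981). Most like that of the 3 β genes were *Pappa2* (r = 0.997, n = 6), *Gabbr2* (0.996) and *Brinp2* (0.994). *Gabbr2*, which encodes a subunit of the metabotropic GABA receptor, was measured at 41.7, 97.1 and 111 CPM in the saline retinas and at 62.7, 69.8 and 80.2 CPM in the microbead retinas. Its lowest value was that of saline replicate 1 and its 2 highest were those of the other saline retinas, as for *Scn2b*. *Scn8a* was compared on its own after its values were seen, and was most like *Intu* (r = 0.997, n = 6), *Kif21b* (0.996) and *Svil* (0.993). *Kif21b*, which encodes a neuronal kinesin, was measured at 371, 301 and 181 CPM in the saline retinas and at 317, 563 and 515 CPM in the microbead retinas, with the lowest value in saline replicate 3 and the highest in microbead replicates 2 and 3. None of these 9 genes passed the threshold of edgeR's test, and the lowest adjusted p-value was 0.135, for *Kif21b*.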

How the data were processed

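RNA was extracted from whole retina with TRIzol. The authors prepared stranded poly(A) libraries, sequenced them paired-end, aligned the reads to GRCm38.p5 with STAR 2.5.3a and GENCODE vM12, and counted them per gene with featureCounts. The deposited values are raw counts per gene without normalization. How reads with several matches were treated and whether counting used strand is not given in the sources used here. The deposited table also holds the authors' DESeq2 comparison (mean normalized count, log2 fold change, fold change, p-value, adjusted p-value and calls), which was not used.

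Genes were kept by edgeR's filterByExpr (at least 10 counts per library in enough libraries and 15 in total). Microbead was compared with saline over all 6 libraries in R 4.3.3 with edgeR 4.0.16 (TMM scaling and two-sided quasi-likelihood test), at a Benjamini-Hochberg threshold of 0.05. Alternatives were DESeq2 1.42.0, limma-voom (limma 3.58.1), other scalings and filters, a block for the replicate number, an offset for gene length and GC content (splines with 5 degrees of freedom), thinning to the smallest library, the authors' limit of a fold change over 2, and each library left out. The steps were tested on simulated counts. Exon lengths came from GENCODE vM21, which holds 99.6% of the tested genes. Library totals ran from 13574949 to 46481382 counts, and limits set by 3 counts cover counting error only. No library was a copy of another of its group, since the chi-square per degree of freedom between libraries of a group was 22.0 or more.

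The sodium channel genes and all lists were chosen with earlier results of these data known. Named were all channel genes, each partner past the threshold, the 2 partners of each list with the highest mean CPM, and the 3 genes most correlated with the mean α and β profiles. The genes most like *Scn8a*, and *Csnk2a2*, *Scn4a* and *Scn9a*, were added after values were seen. Some genes of the lists and some sequences are not reported here.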

Additional observations from a re-analysis of the deposited data

How the results depend on the processing

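The 7 sodium channel genes had 0 calls under every alternative with all 6 libraries, and 1 (*Scn4b*, -1.39, adjusted p = 0.0430 from edgeR) without saline replicate 1, so the range with a library left out was 0 to 1. *Scn2a*, *Scn3a*, *Scn8a*, *Scn2b* and *Scn4b* kept their sign in all 17 alternatives. With a library left out, *Scn1a* ran from -0.20 to 0.53 and *Scn3b* from -0.13 to 0.58, negative only without saline replicate 1, *Scn4b* from -1.44 to -0.55, *Scn2b* from -0.61 to -0.14, *Fgf12* from -0.68 to 0.0215 and *Calm3* from -0.0916 to 0.30. *Calm3* was also -0.11 with the length and GC offset and -0.0454 with the offset and the replicate block. *Scn8a* was 0.61 with the offset (adjusted p = 0.0524 from edgeR).

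The 2261 calls over all genes (1143 higher, 1118 lower) became 3720 without a filter on low counts (2209 lower, with the median of all genes at -0.23), 3556 with DESeq2 (1791 and 1765) and 1248 with a fold change over 2 also required (754 and 494). With the replicate block they were 905 (480 and 425), and with offset and block 1057 (609 and 448). With a library left out, they ran from 46 to 2621 (26 to 1356 higher, 20 to 1265 lower), and were 293 without saline replicate 2 and 46 without microbead replicate 3. The 5 calls in the partner lists became 10 without a filter, 8 with DESeq2, 0 with the block (*Scn7a* at adjusted p = 0.0900 from edgeR), 1 with offset and block (*Scn7a* at 0.108), 2 with the fold limit, and 0 to 10 with a library left out. The same replicate numbers did not pair the samples, since the deviations of same-numbered libraries from their group means correlated at -0.035, 0.136 and 0.010. The causes of these shifts were not tested. The lowest count of the 7 genes in a library was 40, for *Scn4b*, whose 95% interval, -2.18 to 0.21, was the widest.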
